A study of Mus musculus with 6 samples.

Results

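A set of 10 genes used as markers of injured kidney tubules was followed through 2 groups of whole mouse kidneys. They are Havcr1, Lcn2, Clu, Spp1, Vcam1, Cd44, Prom1, Tff3, Pigr and Slpi, and they were found by these symbols in the count tables, where they make up 10 of the 24422 genes listed. The control group held 3 wild type mice and the TfR1KO;KspCre group held 3 mice in which the transferrin receptor gene Tfrc (TfR1), the main entry route of transferrin-bound iron into cells, was deleted by Cre recombinase. All 6 mice were C57BL/6, were taken at postnatal day 60 and had been fed a diet with 220 ppm iron. The Cre transgene was under the Ksp-cadherin (Cdh16) promoter, whose activity lies in distal nephron segments and the collecting duct, so the deletion was limited to part of the epithelium whereas RNA was taken from the whole kidney. Each library came from 1 kidney sample by its title, and the 6 libraries are called control 1 to 3 and knockout 1 to 3 by the numbers in their titles. Poly-A RNA was sequenced and reads were counted per gene. Values are given as CPM (counts divided by the library's scaled total and multiplied by 1e6), scaled between libraries by the trimmed mean of M values.

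A tubule cell that is damaged loses its transport programme and turns on or raises a set of genes, only some of which healthy kidneys use little. Some of the products leave the cell and are measured in urine or blood, such as KIM-1 (Havcr1), NGAL (Lcn2), clusterin (Clu) and osteopontin (Spp1). Others stay on the cell surface and take part in adhesion or mark cells in a progenitor-like state, such as VCAM-1, CD44 and prominin-1, and a further group belongs to the defence of mucosal surfaces, such as trefoil factor 3 (Tff3), the polymeric immunoglobulin receptor (Pigr) and the secretory leukocyte protease inhibitor (Slpi).

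Total counts ranged from 11501053 in knockout 3 to 21001341 in control 1. Tfrc did not separate the groups, with 2783, 2856 and 1032 counts in controls 1 to 3 and 4368, 1713 and 530 counts in knockouts 1 to 3, and only a part of the gene is removed, so it does not check the labels. On the first principal component of all tested genes, knockout 1 lay between the controls and the other 2 knockouts. Control 2 had 52 counts of Xist and between 518 and 1451 counts of each Y-linked gene examined, whereas Xist ranged from 10458 to 23845 counts in the remaining libraries and none of those genes exceeded 4 counts there. The labels give no sex, but these counts mark control 2 as male and the remaining libraries as female. Sex was thus not balanced between the groups, and its part in the values was not tested. In RNA from whole tissue, fewer cells of a type and less RNA per cell cannot be told apart.

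Of the 10 genes, 9 passed the filter on low counts and 1, Tff3, did not. In the test across all 15171 genes that passed (edgeR's quasi-likelihood test, Benjamini-Hochberg adjusted p under 0.05), Havcr1, Lcn2, Vcam1 and Cd44 were higher in TfR1KO;KspCre and 0 of the 9 were lower. The test called 10.6% of all genes higher and 6.64% lower. No gene of the 9 was lower at an unadjusted p under 0.05 (0) or in DESeq2 (0) either. Clu, Spp1, Slpi, Prom1 and Pigr did not pass. The log2 fold change was above 0 for 9 of 9 genes, with a median of 3.62 against 0.0209 over all genes tested. Of the 9, Havcr1 reached the filter level in 1 control and 3 knockouts, so it was tested only through its high knockout libraries. Slpi reached it in 2 controls and 3 knockouts. Among genes with at least 10 counts in every library, which leaves both out, 3 of 7 were called higher (2291 of 13815 genes were called in either direction) and the median was 1.61. With no filter the median over all 10 was 2.6, and it was 2.20 over the 9 without knockout 2. In 7 of the 9 all knockout libraries lay above all controls, a pattern that 23.8% of all tested genes showed, and in 0 of the 9 all lay below (22.2% of all tested genes). DESeq2's Wald test, the tool of the study, called 7 of the 9 higher, that is all but Prom1 and Pigr, at a background of 17.1% higher and of 32.2% in either direction. The number of calls depended on single libraries. In edgeR, the number called among all genes moved with it, so these counts say little about the markers themselves. Without control 1, control 2 or control 3, edgeR called 0 of the 9 and 0 of all genes. Without knockout 3 it called 0 of the 9 and 2 of 15439 genes, without knockout 2 it called 2 of the 9 and 73 of 15408 genes, and without knockout 1 it called 6 of the 9 and 5332 of 15494 genes. The unadjusted p was under 0.05 for 6, 6 and 7 of the 9 without controls 1, 2 and 3, and for 4808, 4270 and 4823 of all genes. With DESeq2 and without control 2, a fit added after seeing the data, 8 of the 9 were called at a background of 10.2%. All 9 log2 fold changes were above 0 in every one of these fits.

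**Figure D1:**
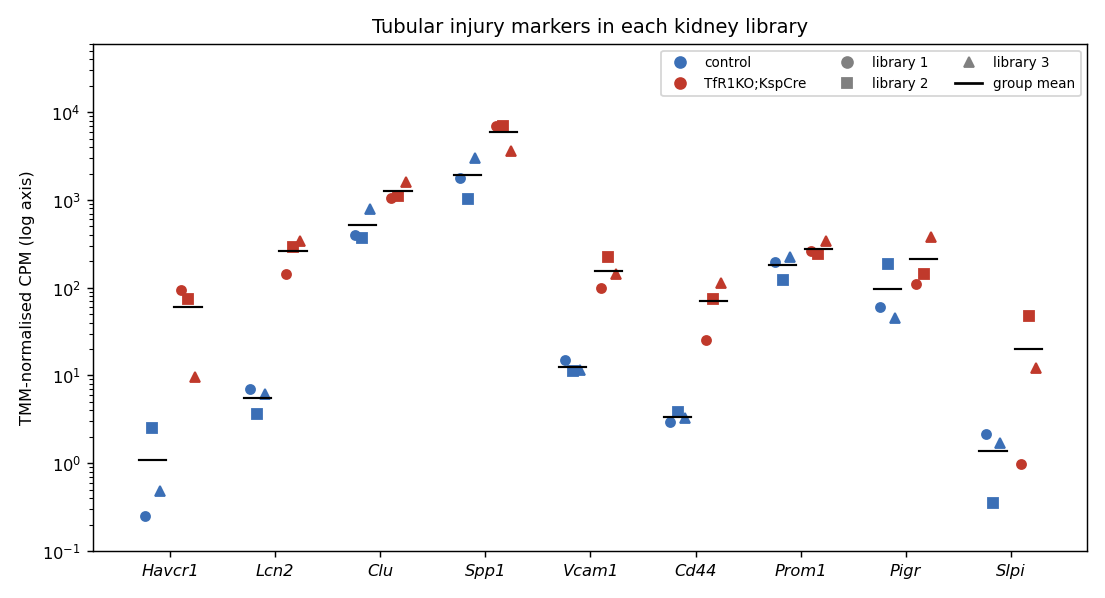
CPM of each of the 9 tested genes in each library, on a log axis, with controls in blue, knockouts in red, a symbol for each library number and the group mean as a line (Tff3 is left out). Lcn2, Vcam1 and Cd44 separate the groups by a wide gap, Clu, Spp1 and Prom1 by a narrow one, and the libraries of Pigr and Slpi overlap.

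The start regions of 4 genes are shown, those with the largest log2 fold changes among the genes that had a promoter entry. RefSeq promoter entries (build GRCm38.p6) were found for 7 of the 10 genes, and Clu, Vcam1 and Tff3 had none. The 250 bases before the annotated start are given 5′ to 3′ on the strand of the gene for Lcn2 (chr2:32387740-32387989, minus strand), Havcr1 at the first of its 3 listed starts (chr11:46739973-46740222, plus strand), Cd44 (chr2:102901666-102901915, minus strand) and Slpi (chr2:164356508-164356757, minus strand). Capitals mark matches on either strand to the C/EBP word TTGCNNAA. The words for AP-1 (TGANTCA) and STAT (TTCNNNGAA) and the NF-kB consensus were searched on both strands too and were not found in these 4 windows.
Lcn2: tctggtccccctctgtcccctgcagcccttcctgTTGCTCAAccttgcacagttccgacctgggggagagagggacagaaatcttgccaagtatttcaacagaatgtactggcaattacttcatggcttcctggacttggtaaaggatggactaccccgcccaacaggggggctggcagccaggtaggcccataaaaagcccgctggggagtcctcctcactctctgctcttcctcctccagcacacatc
Havcr1: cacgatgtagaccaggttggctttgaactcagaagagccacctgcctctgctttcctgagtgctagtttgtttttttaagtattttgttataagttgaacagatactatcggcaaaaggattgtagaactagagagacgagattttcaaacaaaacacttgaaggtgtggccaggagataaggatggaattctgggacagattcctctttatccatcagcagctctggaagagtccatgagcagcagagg
Cd44: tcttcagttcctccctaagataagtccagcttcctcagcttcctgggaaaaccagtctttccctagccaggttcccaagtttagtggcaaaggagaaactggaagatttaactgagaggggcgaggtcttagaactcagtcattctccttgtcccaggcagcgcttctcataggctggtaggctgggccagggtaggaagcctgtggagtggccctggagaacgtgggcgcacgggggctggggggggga
Slpi: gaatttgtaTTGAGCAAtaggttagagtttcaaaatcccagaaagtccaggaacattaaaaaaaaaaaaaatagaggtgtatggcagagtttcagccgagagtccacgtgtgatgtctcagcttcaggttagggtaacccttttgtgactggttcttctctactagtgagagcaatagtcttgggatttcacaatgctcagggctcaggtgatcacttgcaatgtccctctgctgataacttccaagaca
The Lcn2 window held TTGCTCAA at 216 to 209 bases before the start, and the Slpi window held TTGAGCAA, the same word read on the other strand, at 241 to 234 bases before the start. This 8-base word in either orientation was found in 285 of 32851 mouse promoter windows of this length (0.868%), and any match to TTGCNNAA in 9.56%. The first Havcr1 start and Cd44 had no match to any of the 4 motifs. C/EBP matches were not limited to Lcn2 and Slpi, since the second listed start of Havcr1 had TTTAGCAA at 46 to 39 bases before it and the second listed start of Spp1 had TTGCAGAA at 156 to 149 bases. Prom1 had an AP-1 word at both of its listed starts, TGACTCA at 88 to 82 and TGAATCA at 189 to 183 bases before them, a motif that 6.75% of windows held. A match of letters does not show that a factor binds there, and an absent match says only that the letters are not in the window.

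Havcr1 encodes KIM-1, a receptor for phosphatidylserine that injured proximal tubule cells place on their surface and shed into urine. The gene (ENSMUSG00000040405) lies at chr11:46548582-46593080 on the plus strand of mm9. It had 0.249, 2.53 and 0.480 CPM in controls 1 to 3 and 95.0, 74.1 and 9.65 CPM in knockouts 1 to 3. The groups did not overlap, and the control libraries held only 5, 43 and 8 counts against 1936, 1477 and 126. The mean rose from 1.09 ± 1.25 to 59.6 ± 44.5 CPM (SD, n = 3 per group), a log2 fold change of 5.80 (SE 1.12, adjusted p = 0.0305, edgeR). Havcr1 reached the filter level of 0.532 CPM in all knockouts and in control 2 alone of the controls, so it was tested only through its knockouts. Its log2 fold change moved most among the 4 called genes when 1 library was left out, to 7.34 without control 2. Its adjusted p with limma-voom was 0.0759.

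Lcn2 encodes the siderophore-binding protein NGAL, which carries iron outside the transferrin route and is released by stressed distal tubules and by neutrophils. The gene (ENSMUSG00000026822) spans chr2:32240153-32243317 on the minus strand. It had 6.97, 3.64 and 6.18 CPM in controls 1 to 3 and 142, 293 and 341 CPM in knockouts 1 to 3. The lowest knockout library was 20.4-fold above the highest control. The mean rose from 5.60 ± 1.74 to 259 ± 104 CPM, a log2 fold change of 5.53 (SE 0.445, adjusted p = 0.0271, edgeR). Its log2 fold change stayed between 5.28 and 5.81 when any 1 library was left out.

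Clu encodes clusterin, a secreted chaperone of misfolded proteins. It lies at chr14:66587320-66600385 on the plus strand (ENSMUSG00000022037). The controls had 401, 373 and 786 CPM and the knockouts 1062, 1116 and 1610 CPM. The groups did not overlap, with control 3 nearest to the knockouts. The means were 520 ± 231 and 1263 ± 302 CPM, and the log2 fold change of 1.28 (SE 0.365) missed the threshold in edgeR (adjusted p = 0.0538) and passed it in DESeq2 (adjusted p = 0.00339). Without knockout 1, edgeR gave an adjusted p of 0.0328.

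Spp1 encodes osteopontin, a secreted phosphoprotein bound by integrins and CD44 that the thick ascending limb and macrophages also make. It lies at chr5:104864137-104870069 on the plus strand (ENSMUSG00000029304) and was the most abundant of the 10 genes. It had 1770, 1031 and 3034 CPM in controls 1 to 3 and 6986, 7051 and 3598 CPM in knockouts 1 to 3. Control 3 and knockout 3 were close, and the other 2 knockouts stood well above both. The means were 1945 ± 1013 and 5878 ± 1975 CPM, and the log2 fold change of 1.60 (SE 0.521) did not pass in edgeR (adjusted p = 0.0718) and passed in DESeq2 (adjusted p = 0.00306). Scaled by library size alone, Spp1 was called by edgeR at an adjusted p of 0.0453. Marker genes of macrophages, a further source of Spp1, moved in the same direction, as given below with their values.

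Vcam1 encodes an adhesion molecule that binds integrins on leukocytes and that endothelium and poorly repaired proximal tubule cells display. It lies at chr3:115812938-115832606 on the minus strand (ENSMUSG00000027962). The controls sat close together at 14.8, 11.3 and 11.6 CPM, and the knockouts had 98.8, 224 and 142 CPM. Every knockout library stood far above every control. The mean rose from 12.6 ± 1.95 to 155 ± 63.4 CPM, a log2 fold change of 3.62 (SE 0.331, adjusted p = 0.0271, edgeR), and the range over fits with 1 library left out was 3.26 to 3.85.

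Cd44 encodes the main receptor for hyaluronan and is expressed by activated tubule cells and by leukocytes. It lies at chr2:102651298-102741822 on the minus strand (ENSMUSG00000005087). It had 2.94, 3.82 and 3.24 CPM in controls 1 to 3 and 25.1, 73.7 and 113 CPM in knockouts 1 to 3. The controls hardly differed, and the knockouts spread over a wide range above them with knockout 1 lowest. The mean rose from 3.33 ± 0.449 to 70.6 ± 44.1 CPM, a log2 fold change of 4.40 (SE 0.561, adjusted p = 0.0271, edgeR).

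Prom1 encodes prominin-1 (CD133), a membrane protein of protrusions that marks scattered tubule cells and progenitors. It lies at chr5:44384864-44493271 on the minus strand (ENSMUSG00000029086). The controls had 198, 122 and 226 CPM and the knockouts 260, 241 and 338 CPM. The groups did not overlap, but the gap between control 3 and knockout 2 was small. The means were 182 ± 54.2 and 280 ± 51.3 CPM, and the log2 fold change of 0.62 (SE 0.268) passed in neither edgeR (adjusted p = 0.138) nor DESeq2 (adjusted p = 0.104). A gene on the opposite strand, Gm16401, shares 188 of the 4517 exon bases of Prom1, and since the strand setting of the counting is not given in the sources used here, reads of the pair cannot be told apart there.

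Pigr encodes the receptor that carries dimeric IgA and pentameric IgM across epithelia into the lumen. It lies at chr1:132723261-132748826 on the plus strand (ENSMUSG00000026417). It had 59.5, 188 and 45.3 CPM in controls 1 to 3 and 110, 142 and 382 CPM in knockouts 1 to 3. Control 2, the library with Y-linked counts, lay above knockouts 1 and 2, so the groups overlapped. The means were 97.7 ± 78.8 and 211 ± 149 CPM, and the log2 fold change was 1.11 (SE 0.673, adjusted p = 0.26, edgeR). It was 2.01 without control 2, where DESeq2 gave 1.99 with an adjusted p of 0.00697, and 0.37 without knockout 3. Jchain, which encodes the joining chain of the antibodies that Pigr carries, had 1.69, 6.64 and 11.3 CPM in controls 1 to 3 and 17.03, 313 and 16.9 CPM in knockouts 1 to 3 (adjusted p = 0.0731, edgeR). Knockout 2 stood far above the rest, and the other 2 knockouts lay only a little above control 3.

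Slpi encodes an inhibitor of neutrophil elastase and cathepsin G that mucosal epithelia secrete. It lies at chr2:164179806-164214831 on the minus strand (ENSMUSG00000017002). It had 2.14, 0.353 and 1.68 CPM in controls 1 to 3 and 0.982, 47.3 and 12.1 CPM in knockouts 1 to 3. Control 2 was below the filter level, while the other 2 controls and all 3 knockouts reached it. Knockout 1, with 20 counts, lay within the range of the controls, while knockouts 2 and 3, with 942 and 158 counts, lay above it. The means were 1.39 ± 0.928 and 20.1 ± 24.2 CPM, and the log2 fold change of 3.84 (SE 1.29) did not pass in edgeR (adjusted p = 0.0771) or limma-voom (0.326) and passed in DESeq2 (0.00232). It was 2.20 without knockout 2 and 4.39 without knockout 1, where edgeR called it (adjusted p = 0.00957). Markers of urothelium, the lining of the renal pelvis, summed to between 25.9 and 67.8 CPM per control library, and the sums were 67.5, 859 and 9.12 CPM for knockouts 1 to 3, so knockout 2 was the highest library for them as for Slpi. Of the 6 tested, 0 were called by edgeR or had an unadjusted p under 0.05 there. DESeq2 called 0 but gave no adjusted p for Upk1b and Krt5, so it could not call these. Their part in the Slpi value was not tested.

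Tff3 encodes a trefoil peptide of mucus-secreting epithelia that is also used as a urinary marker. It lies at chr17:31262251-31266591 on the minus strand (ENSMUSG00000024029). Control 3 held 1 count and the other 5 libraries 0. In those 5, a count of 0 allows up to 3 counts, which is between 0.147 and 0.23 CPM depending on the library. Neither group could be ranked at this depth, and these limits cover counting error only.

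**Figure D2:**
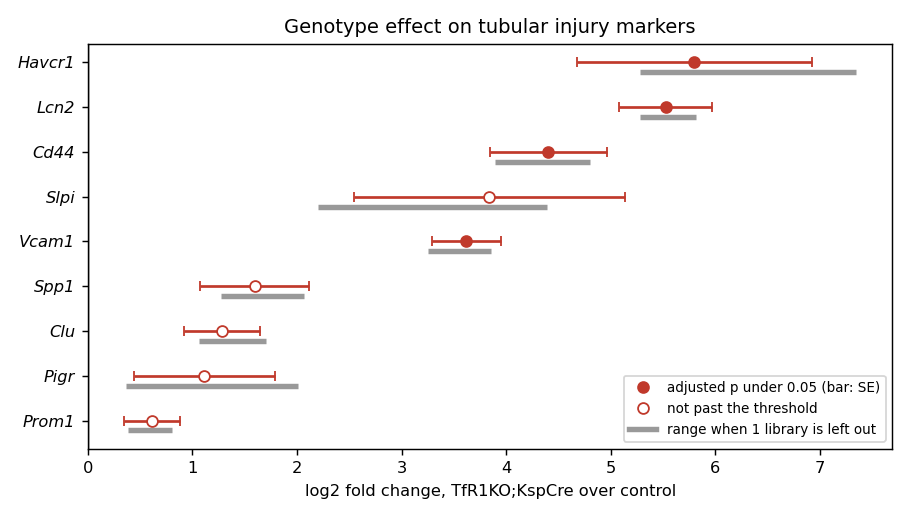
Log2 fold change (TfR1KO;KspCre over control) of the 9 tested genes from edgeR, with thin bars of 1 standard error, filled points for calls, and grey bars for the range when 1 library is left out. Havcr1 at 5.80 and Lcn2 at 5.53 have the largest changes and Prom1 at 0.62 the smallest.

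In rank among the 15171 tested genes by log2 fold change, Havcr1 was 19th from the top, Lcn2 24th, Cd44 42nd, Slpi 91st and Vcam1 122nd. Spp1 was 1350th, Clu 1775th, Pigr 2095th and Prom1 3377th. The 5 genes at the upper end were those with low levels in control kidneys, below 20 CPM in every control library, and the other 4 exceeded 40 CPM in every control library.

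The knockouts did not rank alike for every gene. Knockout 1 was the lowest of the 3 knockouts for 6 of the 9 genes, knockout 3 for Havcr1 and Spp1, and knockout 2 for Prom1. Differences from the mean log2 CPM of the controls were 4.69, 5.74 and 5.95 for Lcn2 in knockouts 1 to 3 and 2.88, 4.43 and 5.05 for Cd44. Havcr1 was highest in knockout 1 and lowest in knockout 3, with 6.85, 6.49 and 3.56. Knockout 3, the library with the lowest total count, also had the largest share of counts from the ribosomal RNA gene Rn45s (2.59%, against 0.506 to 0.745% in the other 5), and the part of this in its values was not tested.

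**Figure D3:**
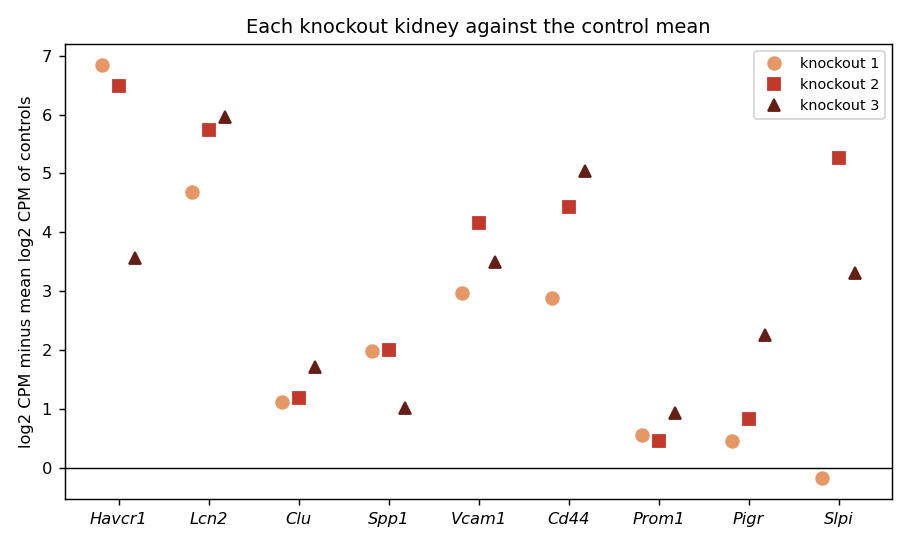
Log2 CPM of each knockout library minus the mean log2 CPM of the 3 controls for the 9 tested genes. Havcr1 has 6.85 in knockout 1 and 3.56 in knockout 3, whereas Lcn2 and Cd44 have their lowest value in knockout 1.

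Levels were compared between genes as CPM per kilobase of exon. In controls the order of mean levels was Spp1 (1180), Clu (151), Prom1 (40.3), Pigr (24.3), Vcam1 (2.56), Lcn2 (2.43), Slpi (1.18), Cd44 (0.486), Havcr1 (0.470) and Tff3 (0.0406). Only the steps from Spp1 to Clu, from Clu to Prom1 and from Pigr to Vcam1 were free of overlap between libraries. In the knockouts the order was Spp1 (3567), Clu (367), Lcn2 (112), Prom1 (61.9), Pigr (52.5), Vcam1 (31.5), Havcr1 (25.8), Slpi (17.1), Cd44 (10.3) and Tff3 at 0. There the steps from Spp1 to Clu, from Clu to Lcn2 and from Cd44 to Tff3 were free of overlap, and Lcn2 had moved from the sixth place to the third. Of all counts, the 10 genes took 0.235, 0.148 and 0.380% in the libraries of controls 1 to 3, which rank below the 0.914, 1.04 and 0.743% of knockouts 1 to 3. Spp1 alone made up 59.4 to 73.7% of these counts in controls and 55 to 79.6% in knockouts.

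Another 38 genes known from injured tubules were examined in the same way, and all passed the filter. Of these, 29 rose and 0 fell in edgeR (DESeq2 called 31 higher and 1 lower, Itgb6, and 1 was lower at an unadjusted p under 0.05), against 17.2% of all genes called in either direction, with a median log2 fold change of 1.83. The largest changes were those of Mmp7, a matrix protease also measured in urine (log2 fold change 6.57, adjusted p = 0.0277), Timp1, an inhibitor of such proteases (5.70, 0.0271), Sox9, a transcription factor of regenerating tubules (4.04, 0.0305), and Ccl2, a chemokine for monocytes (3.79, 0.0271). Mmp7 had 0, 3 and 0 counts in controls and 51, 178 and 87 in knockouts, so its fold is poorly fixed. All controls of Mmp7 and Timp1 were below the filter level of 0.532 CPM (by library size), so both were tested only through their knockouts and had to be higher. In all, 4 of the 29 called genes (these and Ccl2 and Krt20) were below that level in 1 or more controls. Sox9 had 1.84, 2.12 and 1.08 CPM in controls and 7.90, 17.2 and 58.7 CPM in knockouts, a rank order of the knockouts that Cd44 and Lcn2 shared. The 5 epithelial keratins of the list, Krt7, Krt8, Krt18, Krt19 and Krt20, all rose, from 0.90 for Krt7 to 2.95 for Krt19. The cell cycle inhibitor Cdkn1a (3.12, 0.0271), the stress cytokine Gdf15 (3.12, 0.0271) and complement C3 (3.68, 0.0288) rose too, whereas the fibrinogen chains Fga (0.82, 0.32), Fgb (1.55, 0.347) and Fgg (1.86, 0.0653) did not pass. The most abundant genes of the list that were not called were Igfbp7 (-0.15, adjusted p = 0.678) and Cd24a (0.97, 0.0601).

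Of 24 genes for transcription factors and regulators linked to these markers, 22 were tested, 14 rose and 0 fell, against 10.6% and 6.64% of all tested genes, and the median was 1.27 against 0.0209. None was lower in DESeq2 (0) or at an unadjusted p under 0.05 (0). Relb of the NF-kB family (log2 fold change 1.92, adjusted p = 0.0271), the cell cycle factor Foxm1 (1.90, 0.0277), the AP-1 member Fosl2 (1.82, 0.0276) and Nfkbiz, a nuclear IkB protein (1.80, 0.0326), had the largest called changes. Hif1a (-0.11, 0.755) and Ehf (0.39, 0.285) were the most abundant genes not called. These are transcript levels and do not measure the activity of the factors.

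Of 29 genes for receptors, ligands and processing enzymes of the markers, 25 were tested, 6 rose and 1 fell, against 10.6% and 6.64% of all tested genes, with a median of 0.575 against 0.0209. Trem2, a myeloid receptor that binds clusterin, had 1 to 3 counts per control library and 103, 766 and 257 in the knockouts (7.48, adjusted p = 0.0271), and as all its controls were below the filter level it was tested only through its knockouts, so it had to be higher and its fold is poorly fixed. Mmp14 (2.89, 0.0276), a protease that cleaves CD44, and Itgb7 (2.43, 0.0277), a subunit of integrins that bind VCAM-1, also rose. Lrp2, encoding megalin, the endocytic receptor of proximal tubules that takes up filtered NGAL and clusterin, fell from 2705 ± 318 to 504 ± 347 CPM (log2 fold change -2.42, adjusted p = 0.0326). Slc22a17, encoding another NGAL receptor, was at -0.29 (0.342), and the sheddases Adam10 and Adam17 at 0.52 (0.0994) and 0.44 (0.119). Itgb1 (0.64, 0.121) and Ezr (-0.08, 0.815) were the most abundant genes not called. Elane and Ctsg, the proteases that the Slpi product inhibits, did not pass the filter, and Ctsg had 0 counts in all 6 libraries.

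Among 24 relatives of the 10 genes found in the table, 16 were tested, 4 rose and 1 fell, against 10.6% and 6.64% of all tested genes, with a median of 0.73 against 0.0209. The 1 that fell is near the share of all genes that did. Havcr2 (TIM-3, found mainly on leukocytes) was higher by a log2 fold change of 2.59 (adjusted p = 0.0451) but was below the filter level in 1 or more controls, so it was tested only through its knockouts. Among the called genes with no such limit were Wfdc1, of the whey acidic protein family like Slpi, which rose by 2.53 (0.0389), and Icam1, a ligand of leukocyte integrins like Vcam1, which rose by 1.62 (0.0303). Fcamr, an IgA and IgM receptor related to Pigr, fell by 1.59 (0.0475). Wfdc15b (-2.53, 0.0511) and Prom2 (-0.98, 0.287) were the most abundant genes not called.

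**Figure D4:**
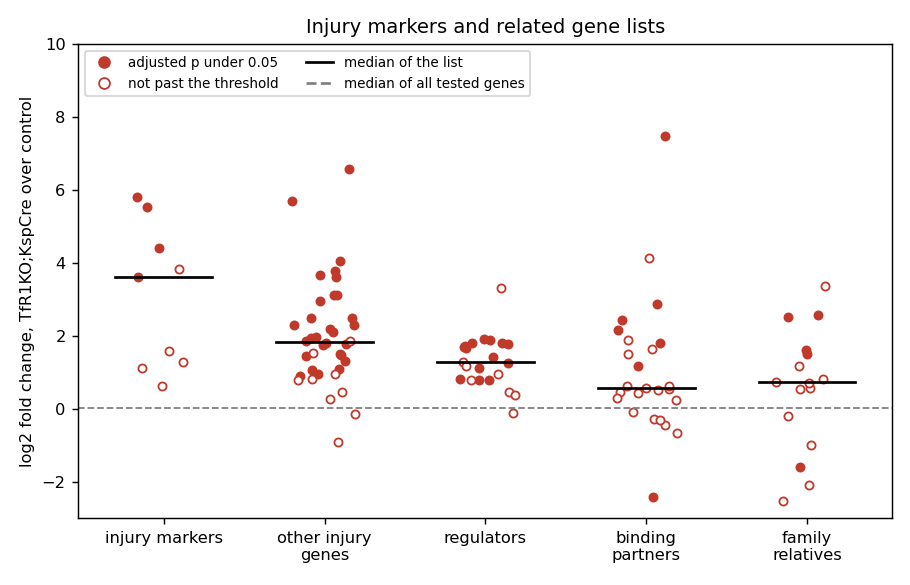
Log2 fold changes of the tested genes among the 10 markers and in the 4 related lists, 1 point per gene, filled for calls, with the list median as a line and the median of all tested genes dashed. The other injury genes have a median of 1.83 and the regulators of 1.27, against 0.575 for the partners and 0.73 for the relatives.

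Several of the 10 genes are also expressed by cells other than tubule cells, and the markers of these cells were summed in each library. As background, edgeR called 10.6% of all tested genes higher and DESeq2 17.1%. An unadjusted p under 0.05 in edgeR was found for 5862 of 15171 genes, in either direction. The 12 macrophage markers summed to 197 to 227 CPM in controls and 634 to 2352 CPM in knockouts, and 11 of them rose in edgeR as in DESeq2 (11), beside the higher Cd44 and Vcam1 and the values of Spp1. Of the 11, 1 (Gpnmb) was tested only through its knockouts. The 8 T cell markers summed to 6.42 to 9.31 CPM in controls and 24.2 to 74.6 CPM in knockouts, with 5 called higher by edgeR (6 by DESeq2, 7 at an unadjusted p under 0.05). Of these 5 calls, 3 (Cd3d, Cd3e and Cd3g) were of genes below the filter level in 1 or more controls, which were tested only through their knockouts. The 9 fibroblast markers summed to 369 to 697 and 1064 to 4141 CPM, with 4 called higher by edgeR (8 by DESeq2, 8 at an unadjusted p under 0.05). The part of these cells in the values of Cd44, Vcam1 and Spp1 was not tested.

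Of 12 neutrophil markers, 5 were tested and 0 were called by edgeR (1 by DESeq2, 1 at an unadjusted p under 0.05), and Ly6g, which defines these cells, had 0 to 2 counts per library. Their sum was 8.26 to 14.5 CPM in controls and 10.5 to 38.8 CPM in knockouts, beside Lcn2 at 142 to 341 CPM in the knockouts. The log2 fold change was above 0 for 4 of the 5 tested, with a median of 1.49 against 0.0209 over all tested genes. The part of neutrophils in the Lcn2 values was not tested. Endothelial markers, beside Vcam1, summed to 543 to 1028 CPM in controls and 977 to 1139 CPM in knockouts with 0 of 8 called by edgeR (1 by DESeq2, 2 at an unadjusted p under 0.05). B and plasma cell markers, beside Pigr, summed to 30.3 to 37.2 and 87.6 to 224 CPM with 1 of 7, Sdc1, called by edgeR (4 by DESeq2, 5 at an unadjusted p under 0.05). Most of that sum was Sdc1, which epithelium also expresses. Without it the markers summed to 7.31, 4.76 and 9.43 CPM in controls 1 to 3 and to 8.88, 43.4 and 14.7 CPM in knockouts 1 to 3, so knockout 1 lay within the range of the controls. The shares of all tested genes were 10.6% higher in edgeR, 17.1% higher in DESeq2 and 5862 of 15171 at an unadjusted p under 0.05. Small counts in these short lists say little beside them.

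Proximal tubule markers, beside Havcr1, summed to 19290 to 27710 CPM in controls and 3079 to 10090 CPM in knockouts, and 8 of 12 fell in edgeR (11 in DESeq2). The shares of all tested genes were 6.64% lower and 10.6% higher in edgeR, and 32.2% in either direction in DESeq2. Small counts in the lists of this paragraph say little beside these shares. Thick ascending limb markers, beside Spp1, summed to 5492 to 12000 and 947 to 7067 CPM with 0 of 7 called by edgeR (2 lower by DESeq2 and 2 at an unadjusted p under 0.05). For distal convoluted tubule the sums were 1940 to 3056 and 152 to 2281 CPM (1 of 4 fell in edgeR, 1 in DESeq2), for collecting duct 1168 to 1523 and 779 to 1800 CPM (0 of 9 called by edgeR, 1 lower by DESeq2 and 1 at an unadjusted p under 0.05) and for podocytes 542 to 675 and 679 to 976 CPM (2 of 6 rose in edgeR, 3 in DESeq2), so the markers of kidney were present in every library.

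**Figure D5:**
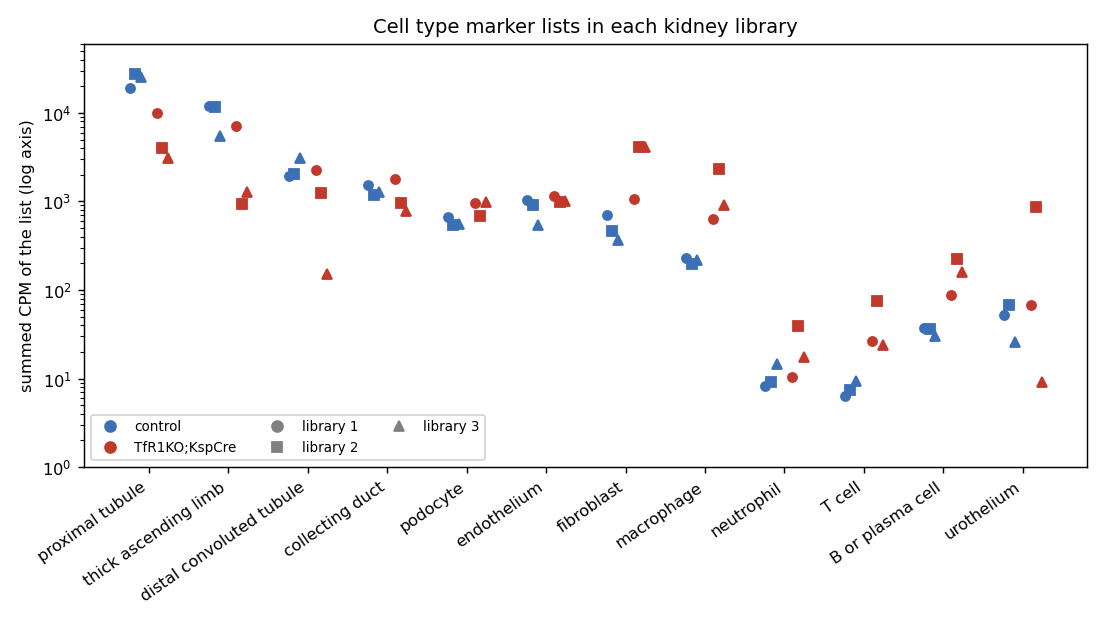
Summed CPM of each cell type marker list in each library, on a log axis, with controls and knockouts in different colours. Macrophage sums are higher in all knockouts (634 to 2352 CPM) than in all controls (197 to 227 CPM), proximal tubule sums are lower in all knockouts, and urothelial sums are highest in knockout 2 (859 CPM).

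Over the 6 libraries, the genes outside the 10 whose log2 CPM was most like the mean standardised profile of the 9 tested genes were Efhd2 (Pearson r 0.9995), Hspb8 (0.9989), Arhgef4 (0.9986), Foxm1 (0.9984) and Uba7 (0.9983). Across all tested genes 58 had an r above 0.99 and 1832, or 12.1%, above 0.9, so a high value is common when 2 groups differ. Among the 10 themselves, Lcn2 was nearest to the mean profile (r 0.994), followed by Vcam1 (0.982) and Cd44 (0.981), and Pigr was farthest from it (0.568). These correlations describe 6 libraries that share their group difference.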

How the data were processed

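Poly-A RNA of 3 control and 3 TfR1KO;KspCre kidneys was sequenced. The authors deposited raw counts per gene, 1 table per group, without normalization. Per the submitters' processing notes and the study's methods, bases were called with CASAVA 1.8.2, reads trimmed with Trimmomatic and aligned to mm9 with TopHat2 2.0.11, and uniquely mapped reads counted with HTSeq; annotation and strand setting are not given in the sources used here. Unique mapping lowers the counts of genes with near-identical copies.

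Counts were analysed in R 4.3.3 with edgeR 4.0.16: filterByExpr (minimum count 10, minimum total 15), which kept 15171 of 24422 genes, TMM, and the quasi-likelihood test over all 6 libraries without covariates. The Benjamini-Hochberg adjustment ran over all tested genes, and calls have an adjusted p under 0.05. Log2 CPM used a prior count of 2. DESeq2 1.42.0 and limma-voom 3.58.1 were alternatives, with other scalings, filters, thresholds, a replicate block and fits leaving out each library. Per degree of freedom, chi-square between replicates of a group was 45.1 to 107.7, far above sampling noise, so each library counted as 1. Positions of genes and exon lengths were taken from GENCODE M1 (mm9) by symbol, with 20791 of 24422 symbols matched. Intervals and limits cover counting error only.

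The 10 genes and all lists were chosen with earlier results of these data known. Named are the 10 genes, Tfrc, per related list the 4 called genes with the largest change and the 2 most abundant not called, and the 5 genes most like the mean profile. The keratins, the fibrinogen chains, Cdkn1a, Gdf15, C3, Itgb6, Jchain, Slc22a17, Gpnmb, Cd3d, Cd3e, Cd3g, Adam10, Adam17, Elane, Ctsg, Gm16401, Ly6g, Sdc1, Xist and Rn45s were added after their values were seen. So were Upk1b and Krt5.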

Additional observations from a re-analysis of the deposited data

How the results depend on the processing

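The 9 tested genes kept their direction in all 151 fits of single genes under alternatives, with 0 reversed (Tff3 was in no fit); 23 lost and 14 gained a call. The counts of calls moved more. For the 10 genes (4 called), DESeq2 called 7, DESeq2 without control 2 called 8 and without knockout 1 called 7 (both chosen after seeing the data), and leaving out 1 library in edgeR gave 0 to 6. For all genes (2612), DESeq2 called 4882, DESeq2 without knockout 1 called 6093, and leaving out 1 library in edgeR gave 0 to 5332. For the partners (7 called in either direction), limma-voom called 3, library size alone 12, DESeq2 without knockout 1 16, and leaving out 1 library gave 0 to 16. For the relatives (5), limma-voom called 3, DESeq2 without knockout 1 8, and leaving out 1 library gave 0 to 7. Leaving out 1 library gave 0 to 29 for the other injury genes (29) and 0 to 17 for the regulators (14). The 0 calls among all genes were those without each control, although an unadjusted p under 0.05 was found for 4808, 4270 and 4823 genes. At an adjusted p under 0.01 every list had 0 calls, the smallest adjusted p of any gene being 0.0271.

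With the replicate number as a block, edgeR called 0 genes in all lists and over all genes, 5432 of which had an unadjusted p under 0.05, 6 of the 10 among them. The correlations of same-numbered libraries' deviations were -0.13, 0.012 and 0.21. These values do not show that the numbers pair the samples, and so few values cannot exclude it. Without TMM, that is by library size alone, the all-gene median moved by 0.27 (log2) and the 9 tested genes remained higher. Depth limits Tff3, Mmp7 and Trem2 and the control levels of Havcr1 and Slpi.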
